A study of Arabidopsis thaliana with 24 samples.

Results

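The heat response of exa1 seedlings was measured as the difference between 3 libraries of the exa1-1 mutant of Arabidopsis thaliana kept for 60 min at 39 °C and 3 libraries of the same mutant kept for 60 min at 23 °C. These 6 libraries were taken from 24 in the series by their column labels, and all genes of the count table were followed. WT (wild type) seedlings at 39 °C and at 23 °C, again with 3 libraries each, served for comparison of the responses and entered the same fit, where they share in the filter, the scaling and the estimate of spread. RNA came from whole seedlings of 9 days on 1/2 MS medium that held 1% sucrose, so shoot and root transcripts were read together. The mutant carries 1 allele of EXA1 (AT5G42950), whose product, a protein with a GYF domain, is known from translational repression and from the control of immune receptors. The labels give neither the hour of harvest nor the number of seedlings per library. Replicates are called independent and biological in the series text, which does not say how they were kept apart. The p-values therefore cover the variation among these libraries, which may be partly technical.

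Heat unfolds proteins, and plant cells answer it through heat shock factors (HSFs). HSFs of the A1 class are held inactive by HSP70 and HSP90 chaperones until unfolded protein draws these chaperones away. Freed A1 factors bind heat shock elements, repeats of the bases GAA and TTC, and switch on genes for chaperones, for further HSFs such as HSFA2, and for the regulators DREB2A and MBF1C. Small heat shock proteins hold unfolded proteins, HSP101 and HSP70 pull aggregates apart, and HSP90 with its partners refolds clients.

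EXA1 served as a check of the labels. Its transcript had 9.83, 10.8 and 11.2 CPM at 39 °C, against 12.4, 11.8 and 13.2 CPM at 23 °C in exa1 seedlings. WT seedlings had 102, 136 and 129.8 CPM at 39 °C, against 112, 93.7 and 90.0 CPM at 23 °C of EXA1, so all 6 mutant libraries lay below all 6 WT libraries. CPM are depth-scaled read counts, adjusted here by TMM (trimmed mean of M values). Between temperatures the EXA1 transcript of exa1 did not pass the test (log2 fold change -0.24 ± 0.13 SE, adjusted p = 0.095), but it passed as lower at 39 °C under 4 alternatives. Its log2 fold change was -0.29 with no filter on low counts, -0.75 and -1.07 by limma-trend on log2(FPKM + 1) and log2(FPKM + 0.1), and -1.12 with library totals. P-values are from edgeR's quasi-likelihood test, adjusted by Benjamini-Hochberg over the 21196 genes that had enough reads.

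The 24 libraries held 17600922 to 21557382 assigned reads. TMM factors were 0.725 to 0.748 in the exa1 libraries at 39 °C and 1.36 to 1.37 in those at 23 °C. With counts scaled to library totals in place of TMM, the median log2 fold change of all genes tested was -0.97, against -0.09 with TMM. Fold changes below are therefore relative to the bulk of the transcriptome, and the labels name no spike-in that would give absolute amounts. Of the genes given below with values, CSD1, NAC1, NPR1, HSP101, AUR2, ELF3, AS1, WRKY33, COR15B, GolS1, AT3G03773, ATERDJ3A, MBF1C, LHCB2.3, AT-HSFB2B, Hop3, cpHsc70-1, cpHsc70-2, EDS5, HSFA3, DREB2A, CLPB3, HSF3, LHCB3, PIF7, AT5G64170 and CAB1 overlap a gene on the other strand, and ABCC7 and CYCD3_1 one on the same strand, so some of their reads may be the neighbour's. In whole seedlings, fewer cells of a type and less RNA per cell cannot be told apart.

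After 60 min at 39 °C the exa1 transcriptome had changed at most of the genes that could be tested. An adjusted p below 0.05 was reached by 16096 of 21196 genes (75.9%), of which 7685 were higher at 39 °C (36.3% of genes tested) and 8411 lower (39.7%). A change of at least 2-fold was reached by 3541 higher genes (16.7%) and 5273 lower genes (24.9%). On the TMM scale rises went further than falls, since 255 genes rose by a log2 of 5 or more and 98 fell by as much. The split depends on the scaling, since with library totals 2885 genes were higher and 15187 lower. Counts for gene groups below stand against these shares of all genes.

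Heat shock genes took up a large share of the RNA at 39 °C. The 86 genes of 6 lists (small heat shock proteins of the cytosol and of organelles, HSFs, HSP70, HSP90 with HSP100, and co-chaperones with coregulators) gave 18.97, 17.1 and 17.39% of all assigned reads in the 3 exa1 libraries at 39 °C, against 0.604, 0.614 and 0.577% in those at 23 °C. That is 17.82% ± 1.005 against 0.598% ± 0.019 (SD, n = 3 each). Shares of reads do not depend on TMM. In WT seedlings the same genes gave 16.9% ± 1.04 at 39 °C and 0.525% ± 0.0283 at 23 °C.

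**Figure D1:**
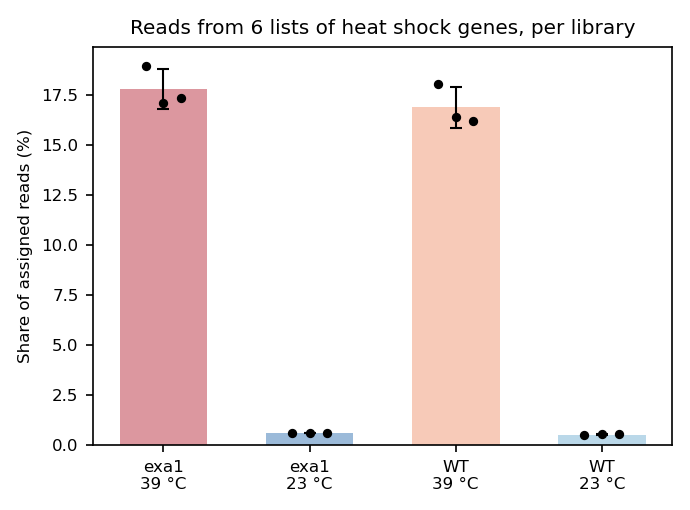
Share of assigned reads (%) from the 86 genes of 6 heat shock lists in each of 12 libraries. Bars are group means, error bars SD and points the 3 libraries of a group. The exa1 libraries at 39 °C lie at 17.1 to 18.97%, and those at 23 °C at 0.577 to 0.614%.

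Small heat shock proteins, which hold unfolded proteins in a state that other chaperones can refold, gave some of the largest rises in the mutant. Of 13 cytosolic genes tested, 10 rose, all by 2-fold or more, 1 fell and 2 did not pass the test, with a median log2 fold change of 13.87. HSP18.2 (AT5G59720) had 10699, 8041 and 8678 CPM at 39 °C, against 0.717, 0.37 and 0.697 CPM at 23 °C. HSP17.4 (AT3G46230), a class I protein of the cytosol, had 11668, 9105 and 9939 CPM at 39 °C, against 0.558, 0.259 and 0.503 CPM at 23 °C. HSP17.6II (AT5G12020), of class II, had 4881, 3538 and 3767 CPM at 39 °C, against 0.159, 0.037 and 0.0774 CPM at 23 °C. All 3 libraries at 39 °C lay far above all 3 at 23 °C in each of these genes, with log2 fold changes of 13.90 ± 0.19, 14.50 ± 0.19 and 15.37 ± 0.24 (SE). These SE are approximate and can be smaller than the counting error of the few reads at 23 °C. HSP17.6A (AT5G12030) had 4833, 3359 and 3809 CPM at 39 °C, against 0, 0.185 and 0 CPM at 23 °C, and only 5 reads in all at 23 °C, so its fitted fold depends on the prior count. HSP17.4 is overlapped on the other strand by AT3G07365, and reads of the pair cannot be told apart, because the strand setting of the counting is not given in the sources used here.

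Several members carry no symbol in the annotation and are given by locus. AT1G53540 had 13074, 9323 and 10091 CPM at 39 °C, against 0.239, 0.111 and 0.232 CPM at 23 °C. AT1G07400 had 15343, 11540 and 12656 CPM at 39 °C, against 0.757, 1.04 and 0.813 CPM at 23 °C. AT1G59860 had 7172, 5241 and 5851 CPM at 39 °C, against 0.279, 0.259 and 0.581 CPM at 23 °C. These 3 HSP20-like genes were among the strongest in the mutant, with log2 fold changes of 15.74, 13.87 and 13.97. AT2G29500, AT1G54050 and AT2G19310 rose by 12.01, 9.86 and 6.88, from higher starting levels of up to 21.5 CPM in a library. Not every HSP20-like gene joined in. AT4G21870 fell, with 6.32, 4.49 and 6.83 CPM at 39 °C, against 14.2, 13.9 and 15.1 CPM at 23 °C (log2 fold change -1.30 ± 0.16 SE, adjusted p = 3.89e-07). AT5G54660 had 9.35, 9.56 and 9.68 CPM at 39 °C, against 9.96, 9.03 and 9.71 CPM at 23 °C (log2 fold change -0.01 ± 0.14 SE, adjusted p = 0.972), and AT5G47600 had under 1 CPM in every exa1 library.

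All 6 small heat shock proteins of organelles rose by 2-fold or more (median log2 fold change 13.35). ATHSP22.0 (AT4G10250), of the endomembrane system, had 6960, 4589 and 4864 CPM at 39 °C, against 0.0398, 0.074 and 0 CPM at 23 °C. It rests on 3 reads at 23 °C against 235687 at 39 °C, a ratio of 142349 with a 95% counting interval (exact binomial) of 48708 to 690267. HSP23.6-MITO (AT4G25200), of mitochondria, had 6558, 5727 and 5656 CPM at 39 °C, against 0.159, 0.111 and 0.0387 CPM at 23 °C. HSP21 (AT4G27670), which protects plastid membranes and the plastid transcription machinery, had 2404, 2015 and 1998 CPM at 39 °C, against 0.159, 0.185 and 0.155 CPM at 23 °C (log2 fold change 13.60 ± 0.17 SE, adjusted p = 4.2e-23). In these 3 genes every library at 39 °C lay above every library at 23 °C, where the few reads leave a wide relative spread. The SE given for HSP21 is likely too small for that reason. AT1G52560, AT5G37670 and AT5G51440 rose by 13.11, 10.63 and 8.98.

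HSF genes moved in both directions. Of 21 listed, 19 could be tested, 14 rose and 5 fell, with a median log2 fold change of 1.70. With library totals 11 were higher and 7 lower. HSFA2, the factor that A1 proteins induce and that sustains the response, had 8616, 7717 and 8127 CPM at 39 °C, against 0.757, 0.74 and 0.89 CPM at 23 °C (log2 fold change 13.31 ± 0.21 SE, adjusted p = 1.56e-21). AT-HSFA7B (AT3G63350) had 467, 442 and 409 CPM at 39 °C, against 0.0398, 0 and 0 CPM at 23 °C, which is 18946 reads against 1, a ratio of 34329 with a 95% counting interval of 6161 to 1355979. Among B class genes, whose products act mostly as repressors, HSF4, AT-HSFB2B and HSFB2A rose, while HSFB3 and HSFB4 fell. HSF4 (AT4G36990, also HSFB1) had 2221, 2476 and 2387 CPM at 39 °C, against 75.1, 71.3 and 73.7 CPM at 23 °C (log2 fold change 5.01 ± 0.10 SE, adjusted p = 7.39e-20), and AT-HSFB2B and HSFB2A rose by 4.67 and 4.05. HSFA7A rose by 4.53, HSFA3, which acts below DREB2A, by 3.99, and HSFA6B by 2.85.

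The 4 A1 factors that start the response had smaller fold changes than HSFA2 and AT-HSFA7B. HSFA1E (AT3G02990) had 33.7, 36 and 33.2 CPM at 39 °C, against 7.09, 6.73 and 5.3 CPM at 23 °C (log2 fold change 2.43 ± 0.12 SE, adjusted p = 1.26e-13). HSFA1D (AT1G32330) had 31.4, 34.3 and 31.4 CPM at 39 °C, against 9.76, 10.4 and 9.68 CPM at 23 °C (log2 fold change 1.70 ± 0.10 SE, adjusted p = 3.8e-12). HSF1 (AT4G17750, also HSFA1A) had 13.8, 12.6 and 13.4 CPM at 39 °C, against 4.42, 3.77 and 4.92 CPM at 23 °C (log2 fold change 1.603 ± 0.14 SE, adjusted p = 1.71e-09). For all 3 the libraries at 39 °C lay above those at 23 °C. HSF3 (AT5G16820, also HSFA1B) rose by 0.94, but with library totals it had 0.06 and did not pass. The 5 HSFs that fell were HSFB3 (-1.54, under 1 CPM throughout), HSFA8 (-1.07), HSFB4 (-0.60), RHA1 (AT5G45710, -0.52) and AT-HSFA5 (-0.31). The libraries of AT-HSFA5 overlapped between temperatures.

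**Figure D2:**
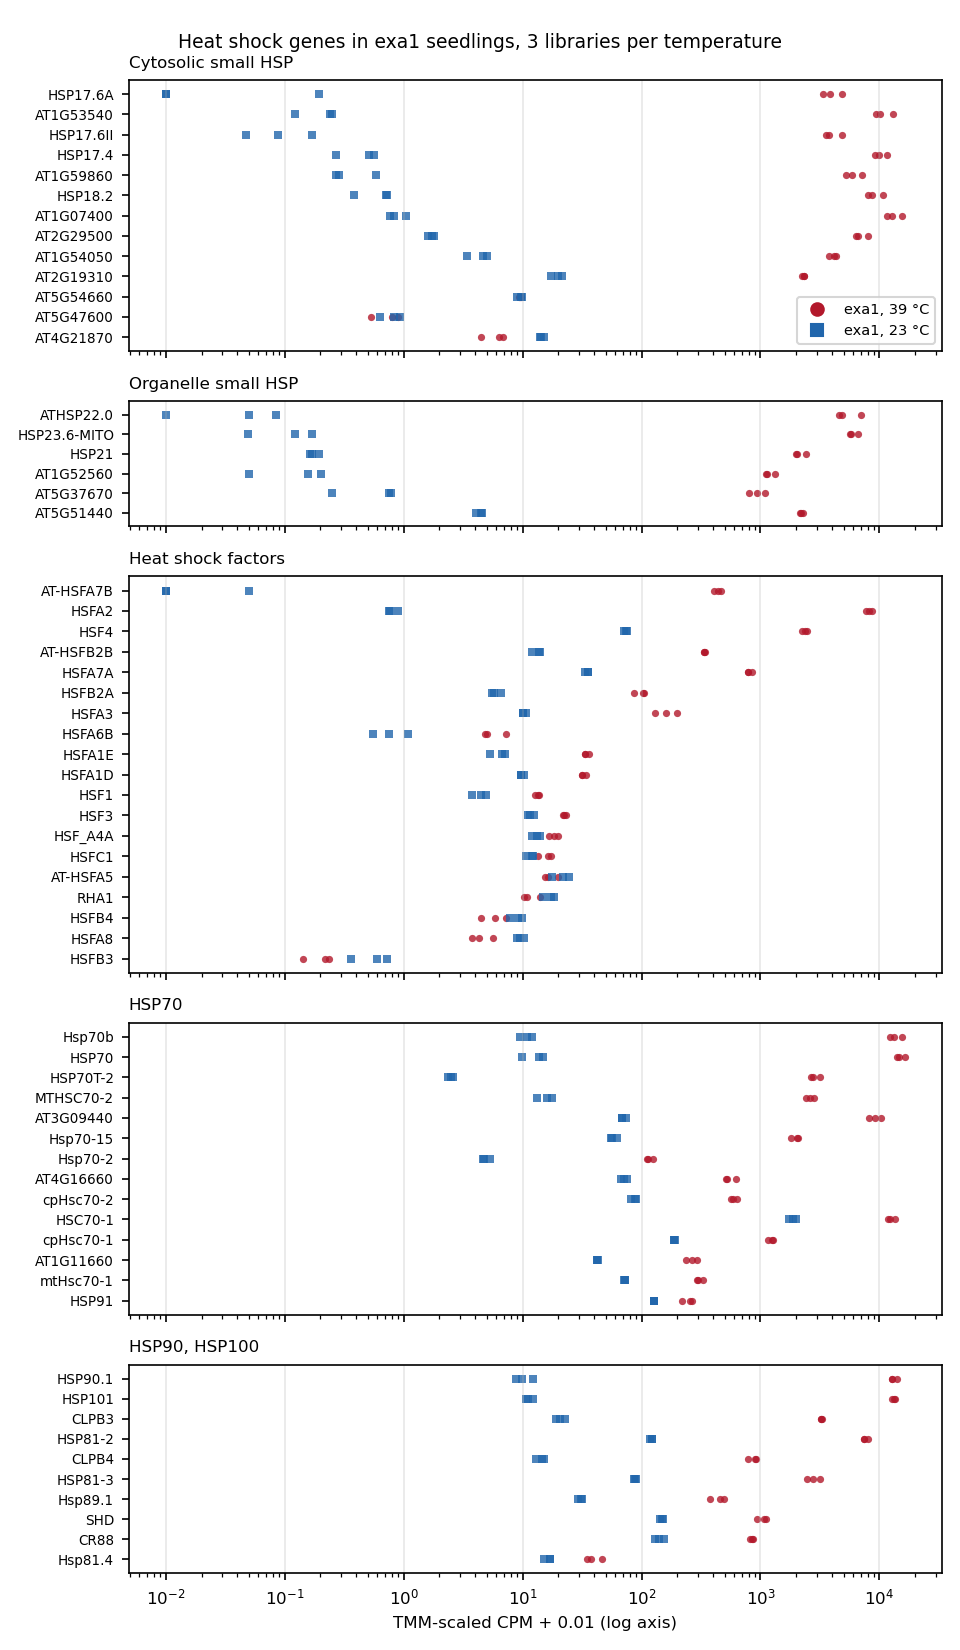
TMM-scaled CPM + 0.01 on a log axis for 62 tested heat shock genes in exa1, 1 row per gene, grouped by family and ordered by fold change. Circles are the 3 libraries at 39 °C and squares the 3 at 23 °C. HSFA2 has 7717 to 8616 CPM at 39 °C and under 1 CPM at 23 °C, while the HSFA1 rows lie much closer together.

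Promoters of 3 strongly induced genes show the element that HSFs bind. Each stretch below runs 5′ to 3′ on the gene's strand, from 250 bases before the annotated first base of the gene to 50 bases from it onward, read from the RefSeq copy of TAIR10.1. Capitals mark heat shock elements, either GAANNTTC or its 3-unit forms GAANNTTCNNGAA and TTCNNGAANNTTC. HSFA2 is shown as the most induced regulator with full read support (chr2:11135374-11135673, plus strand), AT1G53540 (chr1:19980049-19980348, plus strand) and HSP17.4 (chr3:16984818-16985117, minus strand) as abundant small heat shock genes.
HSFA2: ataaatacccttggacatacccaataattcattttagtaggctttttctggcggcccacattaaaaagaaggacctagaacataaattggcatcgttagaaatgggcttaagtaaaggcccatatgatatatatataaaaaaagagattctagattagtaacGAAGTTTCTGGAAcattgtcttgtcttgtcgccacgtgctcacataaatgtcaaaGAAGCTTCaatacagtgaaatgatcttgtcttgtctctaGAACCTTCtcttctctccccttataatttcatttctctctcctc
AT1G53540: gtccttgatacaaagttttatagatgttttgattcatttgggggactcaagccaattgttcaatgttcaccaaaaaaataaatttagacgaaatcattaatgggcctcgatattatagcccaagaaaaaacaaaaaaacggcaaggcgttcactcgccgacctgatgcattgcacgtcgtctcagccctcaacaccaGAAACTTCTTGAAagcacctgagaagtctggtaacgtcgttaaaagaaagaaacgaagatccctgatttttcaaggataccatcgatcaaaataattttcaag
HSP17.4: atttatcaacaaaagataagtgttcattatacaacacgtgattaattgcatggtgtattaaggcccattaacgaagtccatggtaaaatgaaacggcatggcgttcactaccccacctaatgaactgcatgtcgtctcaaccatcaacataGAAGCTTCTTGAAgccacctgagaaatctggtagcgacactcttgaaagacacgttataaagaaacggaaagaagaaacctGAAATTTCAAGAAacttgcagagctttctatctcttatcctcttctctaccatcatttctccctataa
In HSFA2 the elements begin 88 and 33 bases before the annotated first base and 6 bases after it. AT1G53540 has 1, which begins 53 bases before, and HSP17.4 has 2, which begin 99 and 18 bases before.

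Across all promoters of this length, the element was most frequent at the strongest rises, though not in even steps. GAANNTTC reads the same on both strands, the pair of 3-unit forms covers both strands, and each 3-unit match also counts as a 2-unit match. The 2-unit form was in 11.4% of the 21106 promoters of genes tested, in 13% of those that rose 2-fold or more and in 10.4% of those that fell as much. It was in 19.3% of 393 promoters of genes that rose by a log2 of 3 to 5, in 16% of 181 from 5 to 8, and in 35.2% of the 71 promoters of genes that rose by a log2 of 8 or more. The 3-unit form was in 0.578% of all, in 1.63% of those that rose 2-fold or more, in 0.266% of those that fell as much and in 16.9% of the 71. Of 83 promoters from the 6 heat lists, 25.3% held the 2-unit and 12% the 3-unit form, so most heat shock genes had no match to these letters in this window. A match is a description of the letters and no test was made.

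**Figure D3:**
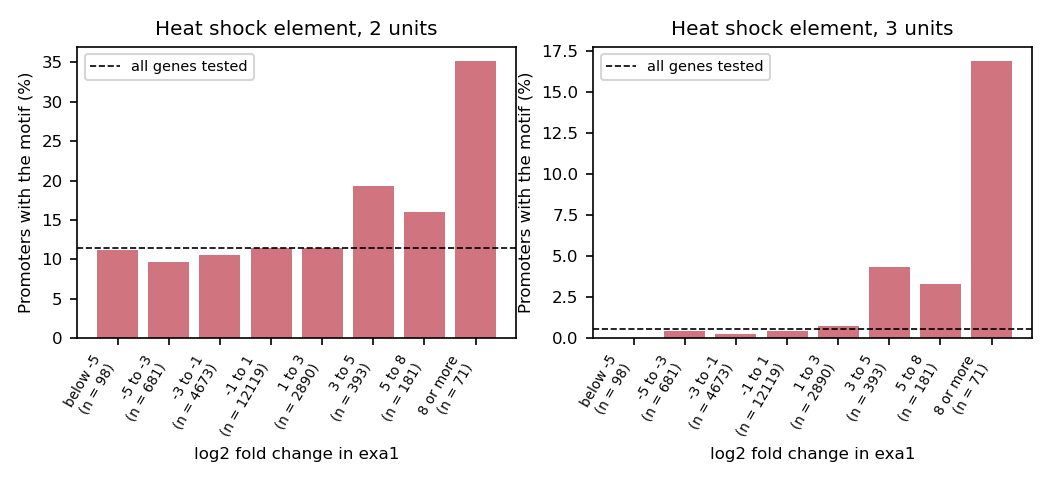
Share of promoters (%, 300 bases each) with a 2-unit (left) or 3-unit (right) heat shock element, by log2 fold change in exa1, with the number of promoters under each bar. The dashed line is the share over all genes tested, 11.4% and 0.578%, and the bars of the strongest rises stand at 35.2% and 16.9%.

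HSP70 chaperones, which bind exposed hydrophobic stretches and use ATP to release them, rose throughout the cell. All 14 genes tested were higher at 39 °C, 13 of them by 2-fold or more, with a median log2 fold change of 3.77, and 13 stayed higher with library totals. HSP70 (AT3G12580), a cytosolic member, had 16418, 14005 and 14653 CPM at 39 °C, against 15, 9.8 and 13.7 CPM at 23 °C (log2 fold change 10.19 ± 0.17 SE, adjusted p = 5.35e-21). Hsp70b (AT1G16030) had 15443, 12287 and 13275 CPM at 39 °C, against 11.9, 9.58 and 10.9 CPM at 23 °C (log2 fold change 10.30 ± 0.18 SE, adjusted p = 2.21e-20). No library at 23 °C held more than 15 CPM of either gene. HSC70-1 (AT5G02500), the main constitutive form, had 11744, 13456 and 12366 CPM at 39 °C, against 1889, 1984 and 1731 CPM at 23 °C (log2 fold change 2.75 ± 0.09 SE, adjusted p = 4.9e-16). Mitochondrial MTHSC70-2 rose by 7.38 and mtHsc70-1 by 2.09. Plastid cpHsc70-1 and cpHsc70-2 rose by 2.71 and 2.78. Hsp70-15 rose by 5.09 and HSP91 by 0.95, but their transcripts are near copies and reads may be exchanged between them.

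HSP90 and HSP100 genes all rose by 2-fold or more, 10 of 10, with a median log2 fold change of 5.46. HSP101 (AT1G74310), the cytosolic disaggregase without which seedlings cannot acquire thermotolerance, had 13474, 12852 and 13135 CPM at 39 °C, against 11, 10.7 and 12.3 CPM at 23 °C (log2 fold change 10.18 ± 0.13 SE, adjusted p = 1.05e-22). HSP90.1 (AT5G52640), the heat-inducible cytosolic HSP90, had 14041, 12662 and 12749 CPM at 39 °C, against 8.8, 9.95 and 12.2 CPM at 23 °C (log2 fold change 10.31 ± 0.16 SE, adjusted p = 8.79e-22). Libraries at 39 °C were close to each other in both genes. Constitutive HSP81-2 (5.96) and HSP81-3 (4.99) rose less, and Hsp81.4 least of the family (1.27). Organelle disaggregases rose as well, CLPB3 of plastids by 7.29 and CLPB4 of mitochondria by 5.93. So did the organelle HSP90 proteins CR88 (2.57), Hsp89.1 (3.85) and SHD of the endoplasmic reticulum (2.82). Chaperonins, barrel-shaped folding machines of plastids and mitochondria, rose in 6 of 6 genes with a median of 2.03, led by HSP60 (3.97) and CPN60A (3.12).

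Co-chaperones and coregulators of the heat response rose in 20 of 21 genes and fell in 1, with a median log2 fold change of 4.69. With library totals 16 were higher and 3 lower. AT5G48570, an FKBP-type peptidyl-prolyl isomerase, had 4822, 5060 and 4818 CPM at 39 °C, against 5.3, 4.4 and 4.45 CPM at 23 °C (log2 fold change 10.02 ± 0.14 SE, adjusted p = 1.84e-22). Hop3 (AT4G12400), which links HSP70 to HSP90, had 7489, 8361 and 7696 CPM at 39 °C, against 14.5, 13.9 and 14.9 CPM at 23 °C (log2 fold change 9.09 ± 0.14 SE, adjusted p = 7.55e-22). MBF1C (AT3G24500), a transcriptional coactivator needed for thermotolerance, had 3271, 2307 and 2695 CPM at 39 °C, against 6.45, 6.92 and 4.72 CPM at 23 °C (log2 fold change 8.83 ± 0.21 SE, adjusted p = 1.75e-15). DREB2A (AT5G05410), which activates HSFA3, had 867, 727 and 788 CPM at 39 °C, against 7.57, 5.88 and 5.84 CPM at 23 °C (log2 fold change 6.95 ± 0.23 SE, adjusted p = 2.43e-12). In none of these 4 genes did the groups overlap, which was required of genes picked as the largest rises of a list. The 1 gene that fell was AT3G03773, an HSP20-like protein, with 6.6, 4.88 and 5.78 CPM at 39 °C, against 13.5, 11.8 and 12.6 CPM at 23 °C (log2 fold change -1.14 ± 0.15 SE, adjusted p = 9.02e-07).

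Genes of the unfolded protein response, which serves folding in the endoplasmic reticulum, rose in 17 of 22 and fell in 3, with a median log2 fold change of 1.28. With library totals 11 were higher and 5 lower. ATERDJ3A (AT3G08970), an endoplasmic reticulum DNAJ protein, had 501, 538 and 489.7 CPM at 39 °C, against 1.04, 1.33 and 0.735 CPM at 23 °C (log2 fold change 8.93 ± 0.14 SE, adjusted p = 1.01e-21). BIP2 (AT5G42020), the HSP70 of the endoplasmic reticulum, had 2375, 2847 and 2278 CPM at 39 °C, against 119, 118 and 113 CPM at 23 °C (log2 fold change 4.42 ± 0.14 SE, adjusted p = 7.45e-16), but shares near-identical sequence with BIP1. BIP3, the form that answers endoplasmic reticulum stress most sharply, was almost absent, with 28 reads at 39 °C and 1 at 23 °C. That is a ratio of 50.7 with a 95% counting interval of 8.39 to 2075. IRE1-1 (AT5G24360), a splicing sensor of this response, fell by 0.71 and PDIL1-4 fell by 0.32.

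Genes of the list for peroxide scavenging and galactinol synthesis went both ways, with 9 of 14 higher and 4 lower (median log2 fold change 0.96, and 0.07 with library totals, where 7 were higher and 7 lower). The list also holds superoxide dismutase genes and the oxidase genes RBOHB and RBOHD, so its counts are not those of peroxide scavenging alone. APX2 (AT3G09640), a cytosolic ascorbate peroxidase that HSFs induce, had 233, 274 and 227 CPM at 39 °C, against 0.239, 0 and 0 CPM at 23 °C, and only 6 reads in all at 23 °C. GolS1 (AT2G47180), which makes galactinol for raffinose sugars, had 2990, 2851 and 2848 CPM at 39 °C, against 7.01, 6.73 and 6.27 CPM at 23 °C (log2 fold change 8.76 ± 0.10 SE, adjusted p = 3.05e-23). APX2 was all but silent at 23 °C, while GolS1 was low. The copper/zinc superoxide dismutase genes went the other way. CSD1 (AT1G08830) had 3.16, 3.56 and 5.1 CPM at 39 °C, against 36, 35.1 and 38 CPM at 23 °C (log2 fold change -3.21 ± 0.15 SE, adjusted p = 1.02e-13). CSD2 (AT2G28190) of plastids had 3.44, 3.76 and 2.62 CPM at 39 °C, against 18.4, 20.0 and 19.7 CPM at 23 °C (log2 fold change -2.56 ± 0.15 SE, adjusted p = 3.01e-12).

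Per length, small heat shock genes became the most abundant nuclear transcripts of the mutant. In the authors' deposited FPKM, which are divided by transcript length, AT1G07400 averaged 11304 ± 1488 FPKM at 39 °C, against 1.38 ± 0.23 FPKM at 23 °C (SD, n = 3 each). HSP17.4 averaged 10047 ± 1116 FPKM at 39 °C, against 0.799 ± 0.291 FPKM at 23 °C (SD, n = 3 each). AT1G53540 averaged 8842 ± 1469 FPKM at 39 °C, against 0.293 ± 0.109 FPKM at 23 °C (SD, n = 3 each). The other 2 of the top 5 were the photosynthesis genes CAB1, with 7605 ± 320.5 FPKM at 39 °C, against 9066 ± 503 FPKM at 23 °C (SD, n = 3 each), and RBCS1A, with 7504 ± 795 FPKM at 39 °C, against 9623 ± 860.5 FPKM at 23 °C (SD, n = 3 each). Thus 3 small heat shock genes stood above RBCS1A, which encodes a small subunit of Rubisco, after 60 min.

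Falls were ranked among genes with a symbol, a mean of 5 CPM or more at 23 °C and no overlap between temperatures. The 10 largest by this rule were in genes of varied function, several of them all but silent at 39 °C. UCC2 (AT2G44790), a blue copper protein, had 0.275, 0.528 and 0.675 CPM at 39 °C, against 36.9, 36.7 and 42.8 CPM at 23 °C (log2 fold change -6.29 ± 0.18 SE, adjusted p = 2.05e-17). BT2 (AT3G48360), a BTB and TAZ domain protein that joins hormone and sugar signals, had 14.8, 16.2 and 18.23 CPM at 39 °C, against 658, 696 and 671 CPM at 23 °C (log2 fold change -5.37 ± 0.17 SE, adjusted p = 6.89e-14). OXS3 (AT5G56550), named for tolerance of oxidative stress, had 0.687, 1.12 and 0.9 CPM at 39 °C, against 36.7, 40.1 and 37.1 CPM at 23 °C (log2 fold change -5.38 ± 0.19 SE, adjusted p = 8.59e-16). The lack of overlap between temperatures was a condition of this ranking, and it held for 78.9% of all genes tested. NAC1 (AT1G56010), a transcription factor of auxin signalling in roots, had 0.55, 1.58 and 0.525 CPM at 39 °C, against 36.3, 31.3 and 37.1 CPM at 23 °C (log2 fold change -5.26 ± 0.23 SE, adjusted p = 7.28e-14). TAS3 (AT3G17185), the precursor of small RNAs against auxin response factors, had 0.344, 0.066 and 0.225 CPM at 39 °C, against 10.6, 10.9 and 9.68 CPM at 23 °C (log2 fold change -5.59 ± 0.27 SE, adjusted p = 1.57e-13). EXPA8 (AT2G40610), an expansin that loosens cell walls, had 0.0687, 0.198 and 0.075 CPM at 39 °C, against 5.18, 4.92 and 5.77 CPM at 23 °C (log2 fold change -5.44 ± 0.38 SE, adjusted p = 4.93e-11). These 3 were close to silent after heat. MAKR6 (-5.83), PME1 (-5.82), ATL8 (-5.67) and the precursor at AT5G03552 (-5.38) completed these 10 falls. The last is overlapped on the other strand by AT5G03553 and PME1 by Hop3.

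Abscisic acid, drought and cold genes rose in 18 of 21 and fell in none, with a median log2 fold change of 3.43, and with library totals 18 were higher and 3 lower. On the compressed scales of log2(FPKM + 1) and log2(FPKM + 0.1) the median was 0.89 and 1.93. KIN1 (AT5G15960), a small hydrophilic protein of cold acclimation, had 26, 17.74 and 19.6 CPM at 39 °C, against 0.757, 0.296 and 0.0387 CPM at 23 °C (log2 fold change 5.85 ± 0.37 SE, adjusted p = 6.61e-10). COR15B (AT2G42530) had 36.1, 28.7 and 30.8 CPM at 39 °C, against 0.916, 1.33 and 0.426 CPM at 23 °C (log2 fold change 5.14 ± 0.21 SE, adjusted p = 1.07e-14). COR15A (AT2G42540), which protects plastid membranes from freezing, had 46.7, 33.8 and 39.8 CPM at 39 °C, against 1.95, 2.85 and 1.08 CPM at 23 °C (log2 fold change 4.34 ± 0.21 SE, adjusted p = 1.17e-12). All 3 had under 3 CPM in every library at 23 °C. Early stress transcription factors divided on the TMM scale, with 6 of 15 higher and 8 lower (median log2 fold change -0.48). Scaled to library totals, 3 were higher and 9 lower (-1.36). ZAT6 (AT5G04340) had 149, 137 and 159 CPM at 39 °C, against 4.86, 6.21 and 5.69 CPM at 23 °C (log2 fold change 4.73 ± 0.15 SE, adjusted p = 4.32e-15), and RHL41 (AT5G59820, also ZAT12) rose by 4.71. ERF104 (AT5G61600), an ethylene response factor of immunity, had 4.12, 2.18 and 4.65 CPM at 39 °C, against 26.1, 27.8 and 29.3 CPM at 23 °C (log2 fold change -2.93 ± 0.27 SE, adjusted p = 1.48e-07). WRKY33 (AT2G38470), a regulator of defence against fungi, fell by 0.48.

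Salicylic acid defence genes were lower in 9 of 16 and higher in 4 (median log2 fold change -0.78), where 39.7% of all genes tested were lower. With library totals 12 of 16 were lower and 1 higher, beside 15187 lower of all 21196 genes tested. The median was -1.10 without exa1 replicate 3 at 39 °C. PR1 (AT2G14610), the classic marker of this pathway, had 5.91, 6 and 4.28 CPM at 39 °C, against 11.9, 25.1 and 11.9 CPM at 23 °C (log2 fold change -1.59 ± 0.39 SE, adjusted p = 0.00344). WRKY70 (AT3G56400) had 4.12, 2.37 and 3.83 CPM at 39 °C, against 9.88, 18.6 and 9.17 CPM at 23 °C (log2 fold change -1.88 ± 0.37 SE, adjusted p = 0.000607). In both genes replicate 2 at 23 °C stood well above the other libraries, though every library at 39 °C was lower still. NPR1 (AT1G64280), the receptor that carries the salicylic acid signal, went the other way with 74, 73.5 and 71 CPM at 39 °C, against 24.5, 25.4 and 27.3 CPM at 23 °C (log2 fold change 1.501 ± 0.09 SE, adjusted p = 7.41e-12). EDS5, which exports a salicylic acid precursor from plastids, rose by 1.11, but had 0.23 with library totals and did not pass there. Jasmonate genes gave 10 higher and 7 lower of 19, with a median of 0.56 that turned to -0.32 with library totals and was 0.32 without exa1 replicate 1 at 39 °C. AOC1 (2.01) and LOX2 (2.00), enzymes of jasmonate synthesis, were among the rises, where the highest log2 fold change in the list was 2.63. The repressor JAZ6 (-2.12) had the lowest. The defensin gene PDF1.2 had 24.7, 36.7 and 27.7 CPM at 39 °C, against 22.7, 30.1 and 25 CPM at 23 °C and did not pass (log2 fold change 0.20 ± 0.30 SE, adjusted p = 0.559).

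Light-harvesting and carbon fixation genes were higher at 39 °C in 26 of 26 on the TMM scale (median log2 fold change 2.02), and with library totals 20 were higher and 5 lower. CAB2 (AT1G29920) had 1059, 737 and 938 CPM at 39 °C, against 18.1, 19.5 and 13.9 CPM at 23 °C (log2 fold change 5.73 ± 0.19 SE, adjusted p = 3.31e-13), but its transcript is a near copy of those of CAB1 and CAB3. LHCB2.3 (AT3G27690) had 62.9, 26.4 and 42.8 CPM at 39 °C, against 2.11, 1.33 and 1.97 CPM at 23 °C (log2 fold change 4.61 ± 0.36 SE, adjusted p = 2.24e-07). LHCB3 (AT5G54270), an antenna protein of photosystem II, had 903, 729.5 and 866 CPM at 39 °C, against 131, 109 and 139 CPM at 23 °C (log2 fold change 2.72 ± 0.12 SE, adjusted p = 4.89e-14). RBCS1A (0.52) and CAB1 (0.63), the most abundant members, turned to -0.36 and -0.25 with library totals. The list's share of all assigned reads was 5.78, 5.63 and 6.13% in the exa1 libraries at 39 °C, against 4.57, 4.52 and 4.35% in those at 23 °C.

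Clock genes moved in the same libraries. Of 16 tested, 9 were higher and 3 lower, with a median log2 fold change of 1.00, and with library totals 7 were higher and 6 lower. AT5G64170 had 206, 196 and 193 CPM at 39 °C, against 1.35, 0.814 and 1.2 CPM at 23 °C (log2 fold change 7.46 ± 0.12 SE, adjusted p = 2.19e-21). PRR9 (AT2G46790), a morning-phase repressor, had 10.7, 11.7 and 11.3 CPM at 39 °C, against 0.159, 0.037 and 0.0774 CPM at 23 °C (log2 fold change 6.87 ± 0.31 SE, adjusted p = 4.88e-14). CCA1 (AT2G46830), a morning transcription factor that also activates light-harvesting genes, had 14.8, 12.9 and 14.2 CPM at 39 °C, against 0.359, 1.41 and 0.581 CPM at 23 °C (log2 fold change 4.13 ± 0.28 SE, adjusted p = 9.71e-11). Each of these genes was near silent at 23 °C. TOC1 (AT5G61380), an evening gene, had 79.9, 81.3 and 86.3 CPM at 39 °C, against 193, 187 and 198 CPM at 23 °C (log2 fold change -1.22 ± 0.09 SE, adjusted p = 8.19e-11), and ELF3 (AT2G25930), which senses warmth, fell by 0.83. The part of the clock in the light-harvesting values was not tested.

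Auxin and warmth-driven growth genes were lower in 11 of 20 and higher in 4 (median log2 fold change -1.85), where 39.7% of all genes tested were lower. With library totals 16 of 20 were lower and 1 higher, beside 15187 lower of all 21196 genes tested. The median was -0.35 over the 13 members that had enough reads in a fit of the 6 exa1 libraries alone, and -0.77 by limma-trend on log2(FPKM + 1). PIF4 (AT2G43010), the transcription factor that drives elongation in warmth, was nevertheless higher, with 67.1, 59.4 and 65 CPM at 39 °C, against 15.38, 13.9 and 20.9 CPM at 23 °C (log2 fold change 1.93 ± 0.15 SE, adjusted p = 1.43e-09). PIF7 had 11.3, 18.4 and 10.9 CPM at 39 °C, against 7.93, 6.96 and 6.58 CPM at 23 °C and rose by 0.93, but had 0.05 with library totals and did not pass there. HB-2 (AT4G16780), a homeobox factor of elongation in shade, had 2.54, 2.57 and 1.12 CPM at 39 °C, against 9.04, 9.25 and 12.1 CPM at 23 °C (log2 fold change -2.26 ± 0.21 SE, adjusted p = 4.55e-09), and EXPA8 was described above. PIF4 and the wall and homeobox genes EXPA8 and HB-2 of the same list thus moved apart.

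Cell division genes gave 5 higher and 5 lower of 16 (median log2 fold change -0.09, and -0.97 with library totals). Without exa1 replicates 1 and 2 at 39 °C and replicate 2 at 23 °C in turn this median was -0.14, -0.03 and -0.05. CYCD3_1 (AT4G34160), a cyclin for entry into the cycle, had 9.97, 9.5 and 10.4 CPM at 39 °C, against 31.2, 31.4 and 29.4 CPM at 23 °C (log2 fold change -1.62 ± 0.12 SE, adjusted p = 8.72e-11). CYCA1_1 fell by 1.81, and PCNA1, a clamp of DNA replication, rose by 1.45. AUR2, a mitotic kinase, rose by 0.94 but had 0.05 with library totals and did not pass there. Root markers were lower in 9 of 13 and higher in 1 (median -1.40), and shoot markers lower in 8 of 8 (median -1.26). SHR (AT4G37650), a patterning factor of roots, had 1.58, 3.3 and 3.6 CPM at 39 °C, against 15.2, 17.2 and 14.2 CPM at 23 °C (log2 fold change -2.46 ± 0.21 SE, adjusted p = 1.61e-09). AS1 (AT2G37630), a patterning factor of leaves, had 24.1, 25.8 and 23.9 CPM at 39 °C, against 97.7, 108 and 103 CPM at 23 °C (log2 fold change -2.06 ± 0.09 SE, adjusted p = 1.7e-14). With RLE size factors 6 of the 8 shoot markers were called lower. These markers of root and shoot were thus mostly lower, but not all leaf genes were. The light-harvesting and carbon fixation genes above, also leaf genes, were higher in 26 of 26 on the TMM scale (median 2.02). For root markers the share of reads was 0.00352, 0.00369 and 0.00363% in the exa1 libraries at 39 °C, against 0.0137, 0.0136 and 0.0141% in those at 23 °C. For shoot markers it was 0.00868, 0.00847 and 0.0087% in the exa1 libraries at 39 °C, against 0.0353, 0.0369 and 0.0365% in those at 23 °C.

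**Figure D4:**
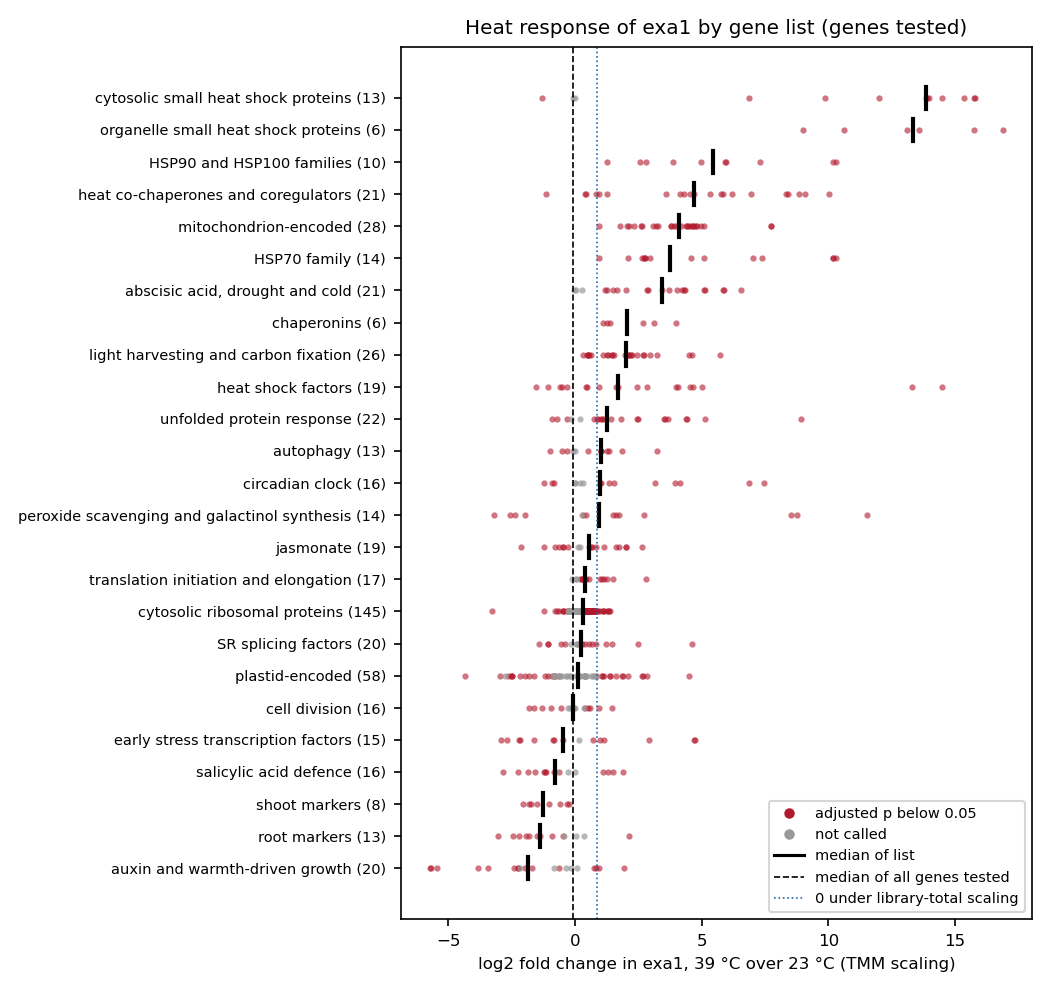
log2 fold change in exa1 (39 °C over 23 °C, TMM scaling) of every tested member of 25 gene lists, with the number tested in brackets. Red points passed the test, grey points did not, black bars are list medians, and lines mark the median of all genes and the place of 0 under library-total scaling. Small heat shock proteins lie far to the right (medians 13.87 and 13.35) and auxin genes to the left (-1.85, or -0.35 over 13 members in the fit of 6 libraries).

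Genes of the translation machinery had small median changes, in a direction set by the scaling. Initiation and elongation factors were higher in 14 of 17 with none lower on the TMM scale (median log2 fold change 0.41), but higher in 5 and lower in 11 with library totals (-0.47). Cytosolic ribosomal protein genes were higher in 101 of 145 and lower in 11 (median 0.32), but higher in 7 and lower in 125 with library totals (-0.56). Their share of all assigned reads was 1.97, 2.12 and 1.93% in the exa1 libraries at 39 °C, against 2.75, 2.75 and 2.71% in those at 23 °C. A rise of 2-fold or more on the TMM scale was found in 5 of the 17 factors (16.7% of all genes). The largest was that of eIFiso4G2 (AT2G24050), a scaffold of the cap-binding complex of plants, with 218, 212 and 220.5 CPM at 39 °C, against 31.6, 31 and 30.1 CPM at 23 °C (log2 fold change 2.81 ± 0.07 SE, adjusted p = 6.31e-18). EIF4E (AT4G18040), the cap-binding protein, rose by 1.49. Both stayed higher with library totals.

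SR splicing factors were higher in 10 of 20 and lower in 5 (median log2 fold change 0.22, and -0.66 with library totals). SR45a (AT1G07350) had 1469, 1551 and 1527 CPM at 39 °C, against 61.9, 61.5 and 61.1 CPM at 23 °C (log2 fold change 4.62 ± 0.09 SE, adjusted p = 1.69e-20). SR30 (AT1G09140) had 602, 782 and 637 CPM at 39 °C, against 124, 124 and 117 CPM at 23 °C (log2 fold change 2.47 ± 0.12 SE, adjusted p = 9.26e-13). RS31 (AT3G61860) had 40.1, 37.7 and 40.6 CPM at 39 °C, against 113, 104 and 105 CPM at 23 °C (log2 fold change -1.44 ± 0.09 SE, adjusted p = 1.59e-11). The stress-linked SR45a and SR30 thus rose as RS31 fell. Autophagy genes, which serve the removal of cell contents, were higher in 8 of 13 and lower in 3 (median 1.02), and with library totals higher in 4 and lower in 6. AtATG18a (AT3G62770) led with 227, 215 and 218 CPM at 39 °C, against 23.1, 24.3 and 22.7 CPM at 23 °C (log2 fold change 3.23 ± 0.08 SE, adjusted p = 4.47e-18), and ATG8B fell by 0.98.

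Organelle transcripts behaved differently in the 2 organelles. Mitochondrion-encoded transcripts were higher at 39 °C in 28 of 28 genes, with a median log2 fold change of 4.09, and in 27 with library totals. On the scale of log2(FPKM + 1) the median was 1.48. These are the 28 of 152 mitochondrial genes that had enough reads to be tested, so a gene with reads at 1 temperature alone had to differ, and the count does not stand for all 152. cox1 (ATMG01360), of respiratory complex IV, had 24.9, 39 and 31.6 CPM at 39 °C, against 0.677, 0.999 and 1.12 CPM at 23 °C (log2 fold change 5.08 ± 0.20 SE, adjusted p = 4.47e-15). cox2 (ATMG00160) had 6.19, 11.1 and 7.58 CPM at 39 °C, against 0.438, 0.185 and 0.155 CPM at 23 °C (log2 fold change 4.98 ± 0.34 SE, adjusted p = 4.22e-11). These libraries were made from mRNA, and organelle transcripts are seen only as far as that preparation keeps them. The mitochondrial share of reads was 0.089, 0.128 and 0.108% in the exa1 libraries at 39 °C, against 0.0207, 0.0215 and 0.0213% in those at 23 °C. Plastid-encoded transcripts gave 15 higher and 16 lower of 58 tested among 133 (median log2 fold change 0.10, and -0.78 with library totals, where 8 were higher and 31 lower). The plastid median also changed sign to -0.06 without replicate 2 at 39 °C and -0.04 without replicate 2 at 23 °C of exa1, and was 0.06, 0.06 and 0.04 without replicates 1 and 3 at 39 °C and replicate 3 at 23 °C, so no direction is given for the list. rpoB (ATCG00190), a subunit of the plastid RNA polymerase, had 0.825, 0.66 and 0.75 CPM at 39 °C, against 14.9, 15.8 and 14.4 CPM at 23 °C (log2 fold change -4.33 ± 0.21 SE, adjusted p = 1.47e-13), whereas psbK (ATCG00070) of photosystem II had 42.1, 53 and 47 CPM at 39 °C, against 6.61, 6.03 and 7.16 CPM at 23 °C (log2 fold change 2.84 ± 0.14 SE, adjusted p = 1.12e-13).

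The response of WT seedlings, measured in other libraries, was set beside that of exa1 to find where the mutant differs. In WT 15929 genes passed, and 94.9% of the genes that changed 2-fold or more in exa1 also passed in the same direction in WT. The difference between the responses, tested as an interaction, passed in 347 genes (1.64%), 180 with a more positive change in exa1 (0.849%) and 167 with a more negative one (0.788%). An unadjusted p below 0.05 was reached by 3599. The count hangs on single libraries. Leaving out exa1 replicates 1, 2 and 3 at 39 °C gave 610, 155 and 151 genes. Leaving out those at 23 °C gave 109, 85 and 128. For WT the counts were 253, 129 and 1481 without replicates 1, 2 and 3 at 39 °C, and 232, 99 and 158 without those at 23 °C. Of the 43 genes tested in the small heat shock protein, HSP70, and HSP90 and HSP100 lists, 3 passed (6.98%, against 1.64% of all genes), namely AT1G11660 of the HSP70 type, Hsp89.1 and AT4G21870. At an unadjusted p below 0.05 in edgeR there were 14 of the 43, beside 3599 of all 21196 genes. DESeq2 called 6 of the 43, a fit of all 24 libraries 8, and limma-trend 1 with either pseudocount. Over all genes tested, DESeq2 called 834 of 21196, the fit of all 24 libraries 2154 of 22226, and limma-trend 161 and 100 of 21196. The count among the 43 rose with DESeq2 and with the fit of all 24 libraries, as did that over all genes. It stayed at 3 without exa1 replicate 1 at 39 °C, where 610 of 21499 genes passed. With 1 library left out, 1 to 6 of the 43 passed. The 6 came without WT replicate 3 at 39 °C, where 1481 of 21512 genes passed. Of 19 HSFs edgeR called 0, with 3 at an unadjusted p below 0.05, while DESeq2 called 2, the fit of all 24 libraries 3 and limma-trend 0.

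**Figure D5:**
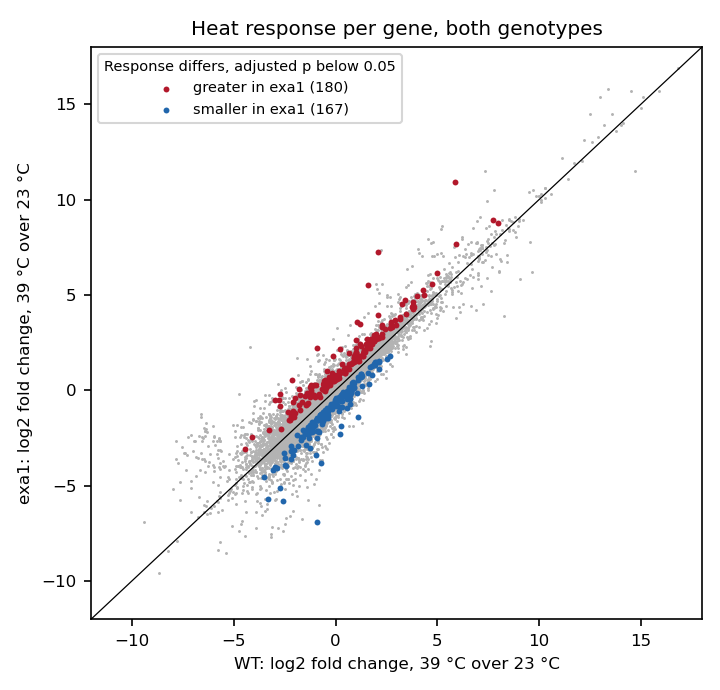
log2 fold change (39 °C over 23 °C) of each of 21196 genes in exa1 (vertical) against WT (horizontal). Coloured points are the 180 and 167 genes whose response differed between genotypes, and the line marks equal responses.

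GolS1 gained more in the mutant. It had 2990, 2851 and 2848 CPM at 39 °C, against 7.01, 6.73 and 6.27 CPM at 23 °C in exa1. WT had 2555, 2474 and 2463 CPM at 39 °C, against 9.62, 9.93 and 9.71 CPM at 23 °C. The mutant was thus higher at 39 °C and lower at 23 °C, with a difference of responses of 0.76 ± 0.12 on the log2 scale (SE, adjusted p = 0.00369). AT1G11660 had 236, 293 and 267 CPM at 39 °C, against 41.9, 41.9 and 42.7 CPM at 23 °C in exa1. WT had 136, 141 and 162 CPM at 39 °C, against 45.1, 41.9 and 39.1 CPM at 23 °C, which gave a difference of 0.85 ± 0.13 on the log2 scale (SE, adjusted p = 0.0033). Hsp89.1, the mitochondrial HSP90, differed by 0.66 ± 0.15 on the log2 scale (SE, adjusted p = 0.0342), a call that ended for 8 of 12 libraries left out (adjusted p up to 0.0959).

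Differences were ranked among called genes with a symbol, a mean of 5 CPM or more in the highest group, and no overlap between temperatures in at least 1 genotype. The 5 largest on each side by this rule were in genes of low to moderate level. XPL1 (AT3G18000), a methyltransferase of choline synthesis, had 4.12, 3.3 and 3.15 CPM at 39 °C, against 39.4, 37.9 and 33.8 CPM at 23 °C in exa1. WT had 31.8, 20.9 and 22.9 CPM at 39 °C, against 42.7, 51.8 and 54.2 CPM at 23 °C. It thus fell further in exa1 than in WT, a difference of -2.42 ± 0.22 on the log2 scale (SE, adjusted p = 1.64e-05). XRCC3 (AT5G57450), of DNA repair by recombination, had 7.49, 7.72 and 9.75 CPM at 39 °C, against 0.996, 1.48 and 1.47 CPM at 23 °C in exa1. WT had 3.35, 3.25 and 2.93 CPM at 39 °C, against 1.8, 1.76 and 1.27 CPM at 23 °C, a difference of 1.67 ± 0.32 on the log2 scale (SE, adjusted p = 0.0135). The calls of XPL1, XRCC3, GolS1 and AT1G11660 held under each of the 12 libraries left out and the 9 other alternatives. MLO7 (AT2G17430), a membrane protein of the MLO family, had 3.99, 6.66 and 5.85 CPM at 39 °C, against 8.13, 7.81 and 7.7 CPM at 23 °C in exa1. WT had 0.616, 0.738 and 0.806 CPM at 39 °C, against 5.32, 4.68 and 4.93 CPM at 23 °C, so it fell less in exa1 than in WT, a difference of 2.27 ± 0.31 on the log2 scale (SE, adjusted p = 0.00221). The fall of MLO7 within exa1 was not called without exa1 replicate 1 at 39 °C. RLP21 (AT2G25470), a receptor-like protein, had 13.3, 10.9 and 9.75 CPM at 39 °C, against 0, 0 and 0 CPM at 23 °C in exa1. Against a floor of 3 reads over the group at 23 °C it was at least 295-fold higher. WT had 10.9, 9.82 and 7.76 CPM at 39 °C, against 0.144, 0.112 and 0.205 CPM at 23 °C, and since exa1 had no read at 23 °C the size of the difference depends on the prior count (adjusted p = 0.036).

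On the negative side, MAKR6 (AT5G52900) had 0, 0.198 and 0.075 CPM at 39 °C, against 5.7, 6.07 and 5.15 CPM at 23 °C in exa1. WT had 1.51, 0.591 and 0.879 CPM at 39 °C, against 5.21, 5.81 and 7.08 CPM at 23 °C, a difference of -3.25 ± 0.67 on the log2 scale (SE, adjusted p = 0.0184). HB30 (AT5G15210), a homeobox protein, had 1.44, 1.45 and 1.88 CPM at 39 °C, against 24.3, 26.1 and 23.2 CPM at 23 °C in exa1. WT had 5.96, 4.58 and 3.22 CPM at 39 °C, against 23.2, 25.7 and 26.6 CPM at 23 °C, so it fell in both genotypes and further in the mutant, a difference of -1.50 ± 0.26 on the log2 scale (SE, adjusted p = 0.00842). BGL2 (AT3G57260, also PR2), a glucanase of salicylic acid defence, had 0.206, 0.264 and 0.375 CPM at 39 °C, against 1.43, 1.74 and 0.929 CPM at 23 °C in exa1. WT had 6.78, 4.06 and 8.13 CPM at 39 °C, against 7.43, 3.94 and 4.75 CPM at 23 °C, a difference of -2.51 ± 0.58 on the log2 scale (SE, adjusted p = 0.0366). In BGL2 and in NUDT6 (-2.53), a nudix hydrolase, the mutant was also the lower genotype at both temperatures. BGLU33 (1.39) and ABCC7 (1.32) completed the positive side. The calls of RLP21, BGL2 and ABCC7 each ended for 8 of 12 libraries left out, NUDT6 for 4, and MAKR6 and BGLU33 for 3, with adjusted p of up to 0.104, 0.105, 0.118, 0.0579, 0.0654 and 0.0579.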

How the data were processed

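Whole seedlings were profiled by mRNA sequencing, and 12 libraries of the heat set (exa1 and WT, 39 and 23 °C, 3 each) were used. The authors deposited whole read counts per gene, which were used for all main tests, and FPKM per gene (scaled to length and depth), which were used for levels between genes and in 2 alternatives. HISAT2 2.0.4, HTSeq 0.6.1p1 and TAIR10 are named per the submitters' processing notes. Gene names and promoters came from the RefSeq copy of TAIR10.1, which held 32548 of 32833 loci, 10974 of them with a symbol.

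Counts were scaled by TMM, filtered by filterByExpr and fitted in 1 robust quasi-likelihood model with 8 residual degrees of freedom (edgeR 4.0.16, R 4.3.3). P-values were adjusted by Benjamini-Hochberg with a threshold of 0.05. Each standard error was taken as |log2 fold change| divided by √F, an approximation that is least reliable for genes with few reads at 1 temperature. For such genes it can be smaller than the counting error of those reads, so their ± values can understate the uncertainty. The fit was also run on simulated counts in which 200 genes changed, while 16096 were called here. That run therefore cannot check the scaling between temperatures. Alternatives used limma 3.58.1 on log2(FPKM + 1) and log2(FPKM + 0.1), DESeq2 1.42.0, RLE size factors, no filter, a fit over all 24 libraries, a fit over the 6 exa1 libraries, a block for replicate number, the removal of organelle genes, and the removal of each library in turn. Library-total scaling was added after the data were seen.

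The 23 gene lists (363 loci) and the rule for names were chosen with earlier results of these data known. The rule took the 10 largest rises and falls with a symbol, a mean of 5 CPM or more at the temperature where they were higher and libraries that did not overlap, the 5 largest interactions each way, 2 members each way per list, all heat shock families, marker genes and the 5 most abundant transcripts. Ribosomal genes, and plastid and mitochondrial genes, were found from annotation and locus names. The ribosomal list rests on the wording of the annotation and may hold a few organelle proteins. ONSEN transposon copies (8 listed) were not analysed here. Near copies share 95% identity over 50% of a transcript. Counting intervals and floors (3 reads) cover counting error only.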

Additional observations from a re-analysis of the deposited data

Results flagged for a closer look

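The heat response differed between exa1 and WT, by the interaction term of edgeR, in 347 genes. Among the genes described, the difference of responses (exa1 minus WT, log2) was positive for RLP21 (4.98), MLO7 (2.27), XRCC3 (1.67), BGLU33 (1.39), ABCC7 (1.32), AT1G11660 (0.85), GolS1 (0.76) and Hsp89.1 (0.66). It was negative for MAKR6 (-3.25), NUDT6 (-2.53), BGL2 (-2.51), XPL1 (-2.42), HB30 (-1.50), JAZ6 (-1.004), AT4G21870 (-0.95) and RS31 (-0.53).

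Of these 16 genes, AT1G11660, MLO7, GolS1, XPL1, HB30 and XRCC3 passed with each of the 12 libraries left out. The highest adjusted p was 0.0168 for AT1G11660, 0.0152 for MLO7, 0.0172 for GolS1, 0.000782 for XPL1, 0.0291 for HB30 and 0.0479 for XRCC3. The other calls ended without some libraries. BGLU33 was lost without exa1 replicates 1 and 2 and WT replicate 2 at 23 °C (adjusted p up to 0.0579). MAKR6 was lost without exa1 replicate 3 and WT replicate 1 at 39 °C and exa1 replicate 2 at 23 °C (up to 0.0654). NUDT6 was lost without exa1 replicates 2 and 3 at 39 °C and replicate 2 of each genotype at 23 °C (up to 0.0579).

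RLP21 was lost without replicate 2 of each genotype at 39 °C and without any 1 of the 6 libraries at 23 °C (adjusted p up to 0.104). Hsp89.1 was lost without exa1 replicates 2 and 3 and WT replicate 2 at 39 °C, and without any exa1 library or WT replicates 2 and 3 at 23 °C (up to 0.0959). ABCC7 was lost without exa1 replicate 3 and WT replicates 1 and 2 at 39 °C, and without any exa1 library or WT replicates 2 and 3 at 23 °C (up to 0.118). BGL2 was lost without any exa1 library or WT replicate 1 at 39 °C, and without exa1 replicates 1 and 2 and WT replicates 2 and 3 at 23 °C (up to 0.105). RS31, JAZ6 and AT4G21870 were lost for 9, 10 and 9 of the 12 libraries left out (up to 0.125, 0.111 and 0.0992). JAZ6 passed without exa1 replicate 1 or WT replicate 3 at 39 °C, AT4G21870 also without exa1 replicate 3, and RS31 also without WT replicate 1 at 23 °C. Limma-trend on log2(FPKM + 1) kept AT1G11660, BGLU33, GolS1, XPL1 and XRCC3 and lost the others. On log2(FPKM + 0.1) it also kept NUDT6, MLO7 and HB30. RLE size factors ended the call of RS31. Groups of 3 were not searched for single libraries that stand apart.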

How the results depend on the processing

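The count of genes called in the heat response of exa1 ran from 15363 to 16453 with 1 library left out, and that of 2-fold changes from 8692 to 8927. In WT the count ran from 15209 to 16129. None of these 3 counts moved by more than 1.5 times under any alternative. The split did move, with 2892 higher and 15177 lower genes for limma-trend on log2(FPKM + 1), close to that of library totals. The 2-fold count had 1443 higher and 10339 lower genes with library totals. The interaction count was 834 with DESeq2, 2154 with all 24 libraries in 1 fit, and 161 and 100 by limma-trend on log2(FPKM + 1) and log2(FPKM + 0.1). It ran from 85 to 1481 with 1 library left out, and the cause was not tested. Replicate numbers did not pair the samples (correlations of -0.07 to 0.03 between libraries of 1 genotype with the same number). A fit with the replicate block gave 15975 genes in exa1, 8787 with 2-fold changes, 299 interactions and 15831 in WT. Medians turned negative under log2(FPKM + 1), log2(FPKM + 0.1) and library totals for SR factors (-0.64, -0.66 and -0.66), translation factors (-0.45, -0.48 and -0.47), jasmonate genes (-0.23, -0.29 and -0.32), cytosolic ribosomal proteins (-0.55, -0.56 and -0.56) and plastid-encoded transcripts (-0.49, -0.86 and -0.78). So did CAB1 (-0.25, -0.25 and -0.25) and RBCS1A (-0.36, -0.36 and -0.36). Leaving out 1 library moved the medians of 3 lists by over 1.5 times, to -0.06 to 0.11 for plastid-encoded transcripts, -0.14 to -0.03 for cell division and 0.32 to 0.66 for jasmonate. None of the 3 settings above carries a TMM factor. Depth limits the genes with under 10 reads at 23 °C, whose fitted folds are uncertain.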

Other observations

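Noncoding classes of the annotation were also read. Of 561 lncRNA genes tested, 161 were called higher and 154 lower by 2-fold or more in exa1, which is 28.7% and 27.5%, beside 16.3% and 24.7% of 20386 protein-coding genes. Of 128 other ncRNA genes, 17 were higher and 53 lower by 2-fold or more (13.3% and 41.4%). Among 41 miRNA precursors 16 rose and 18 fell by 2-fold or more, and among 44 snoRNA genes 14 rose and 8 fell. The libraries were made from mRNA, so these classes are seen only as far as that preparation keeps them. Of the 561 lncRNA genes, 536 (95.5%) overlap a gene on the other strand, and with the strand setting not given their reads and those of the neighbour cannot be told apart.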
